A study of Homo sapiens with 6 samples.

Results

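The noradrenergic core transcription factors of neuroblastoma are described here in 6 total RNA libraries. The members are 8 genes taken by symbol from a published regulatory circuit, out of 60651 genes in each count table. They are *PHOX2A*, *HAND2*, *GATA2*, *GATA3*, *ISL1*, *TBX2*, *TFAP2B* and *EYA1*. They were chosen with earlier results of these data known. All 8 were found, and 7 of them passed the filter on low counts, as did 22443 genes in all. *TFAP2B* did not pass and is given by its counts. Human neuroblastoma cells in culture gave the 6 libraries. Ethanol (EtOH), the vehicle, appears in the titles of 3, and tetracycline (Tet), an antibiotic used to switch on inducible constructs, in the titles of the other 3. The labels give 5 days of treatment for all 6 libraries. The cell model is not settled by its labels. The titles name IMR-5/75, a *MYCN*-amplified line, and a tag speaks of a knockdown, whereas the growth text describes SK-N-SH cells, as single clones, carrying the tetracycline repressor and an inducible *MYCN* expression construct. The study's methods describe an SK-N-AS clone of that kind and IMR-5/75 cells with an inducible shRNA against *MYCN*. Under each of these accounts both labels share the carrier line and its constructs, and libraries are called only by their EtOH or Tet label.

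Sympathetic neurons and the chromaffin cells of the adrenal gland arise from the neural crest, and neuroblastoma arises from the same lineage. The paired-like homeodomain factor PHOX2A, the basic helix-loop-helix factor HAND2, the zinc finger factors GATA2 and GATA3, the LIM homeodomain factor ISL1, the T-box factor TBX2, the AP-2 factor TFAP2B and the coactivator EYA1 act in this lineage. In neuroblastoma cells of the adrenergic state, transcription factors of this circuit bind each other's enhancers and those of genes for noradrenaline synthesis. A mesenchymal state with other factors is also known.

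Promoter sequences from RefSeq (GRCh38.p14) are shown for 3 members that stand for different outcomes in these libraries. *ISL1* had the smallest p-value among the members, *GATA2* had a large fold change at a low level, and *HAND2* was the most abundant member whose libraries overlapped between the labels. Each window spans 250 bases before to 50 bases after the RefSeq start of the gene, 300 bases in all, written 5′ to 3′ on the strand of the gene. In these 3 windows the RefSeq start was also the start of the gene in the count tables. Capitals mark matches, on either strand, to 5 motifs known for these factor classes: CACGTG (the E-box of MYC proteins), AGATAA (zinc finger factors of the GATA family), GCCNNNGGC (AP-2 factors), GGTGTGA (T-box factors) and TAATTA (homeodomain factors). The windows are chr5:51383198-51383497 on the plus strand for *ISL1*, chr3:128493152-128493451 on the minus strand for *GATA2* and chr4:173530180-173530479 on the minus strand for *HAND2*.
ISL1: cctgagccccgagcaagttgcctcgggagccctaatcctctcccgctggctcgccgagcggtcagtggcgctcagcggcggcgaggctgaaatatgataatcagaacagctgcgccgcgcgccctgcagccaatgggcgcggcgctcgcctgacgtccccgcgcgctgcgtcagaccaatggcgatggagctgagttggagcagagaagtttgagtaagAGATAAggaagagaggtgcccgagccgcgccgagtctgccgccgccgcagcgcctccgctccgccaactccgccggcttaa
GATA2: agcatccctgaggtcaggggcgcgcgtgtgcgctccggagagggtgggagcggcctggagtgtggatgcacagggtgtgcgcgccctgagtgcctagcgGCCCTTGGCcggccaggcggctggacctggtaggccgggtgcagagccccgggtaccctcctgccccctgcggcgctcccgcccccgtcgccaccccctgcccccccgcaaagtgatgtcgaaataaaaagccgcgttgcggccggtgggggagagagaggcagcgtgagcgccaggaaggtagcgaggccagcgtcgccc
HAND2: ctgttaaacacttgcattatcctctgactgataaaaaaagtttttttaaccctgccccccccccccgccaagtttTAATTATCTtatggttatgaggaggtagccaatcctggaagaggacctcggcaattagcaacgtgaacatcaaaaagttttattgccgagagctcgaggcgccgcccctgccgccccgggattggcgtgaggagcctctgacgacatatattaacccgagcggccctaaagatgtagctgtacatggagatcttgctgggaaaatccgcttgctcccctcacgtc
The *ISL1* window holds 1 AGATAA match, 31 bases before the start. The *GATA2* window holds 1 GCCNNNGGC match, 151 bases before the start. In the *HAND2* window a TAATTA match 175 bases before the start overlaps an AGATAA match whose first base lies 172 bases before it, so that both are marked as 1 run of capitals. No CACGTG match was in these 3 windows. RefSeq windows were at hand for 6 members, 12 windows in all, of which 1 held CACGTG (a downstream start of *GATA3*), 2 held AGATAA, 5 held GCCNNNGGC, 1 held TAATTA and 0 held GGTGTGA. The 5 windows with GCCNNNGGC all belong to *GATA2* and *GATA3*, the members with more than 1 window, so windows are not separate members. Among 35116 RefSeq promoter windows of the same length, CACGTG was in 7.26%, AGATAA in 10.3%, GCCNNNGGC in 23.2%, GGTGTGA in 3.45% and TAATTA in 4.84%. A match is a run of letters and not a measured binding site.

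The libraries held 27933378 to 40498065 estimated counts, and 3 counts corresponded to 0.0741 to 0.107 CPM, a count divided by library depth. *MYCN*, the gene the tetracycline system was built on, stood at 158, 256 and 156 CPM in EtOH replicates 1, 2 and 3 and at 197, 200 and 145 CPM in Tet replicates 1, 2 and 3. Its log2 fold change, Tet over EtOH, was -0.07 (SE 0.23, 95% interval -0.60 to 0.46, edgeR quasi-likelihood adjusted p = 0.956), and the sign changed with the library left out, so a difference in *MYCN* RNA that would mark an induction or a knockdown was not detected. In a principal component analysis EtOH replicate 2 and Tet replicate 2 stood together at 1 end of the first component (44.7% of variance), and the second (25.7%) separated the labels. Across all genes tested, an adjusted p under 0.05 was reached by 33 genes higher under the Tet label and 20 lower. *TH*, the rate-limiting enzyme of catecholamine synthesis and a defining noradrenergic marker, had 0 counts in 5 libraries and 1 in Tet replicate 3. Of 9 noradrenergic markers it was the only 1 at or under 3 counts in every library. Schwann and glial markers summed to 2.81 to 4.60 CPM under the EtOH label and 1.75 to 5.76 CPM under Tet, with 2 of 7 at or under 3 counts in every library. Endothelial and leukocyte markers summed to 0.529 to 1.14 and 0.554 to 0.649 CPM, with 3 of 6 that low.

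The members spanned more than 3 orders of magnitude in level per length, given as TPM, which divides a count by transcript length and library depth. *GATA3* was highest in every library, at a mean of 225 TPM over the 6 libraries (range 199 to 268), and made up 48.9% to 54.8% of the summed level of the 8 members. *HAND2* followed at 78.9 TPM (49.3 to 102), *ISL1* at 77.7 TPM (39.5 to 139), *EYA1* at 37.6 TPM (28.7 to 59.1) and *PHOX2A* at 13.5 TPM (7.59 to 31.9). Well below them lay *TBX2* at 1.07 TPM (0.223 to 2.48), *GATA2* at 0.449 TPM (0.168 to 0.809) and *TFAP2B* at 0.0584 TPM (0.0249 to 0.0856). The ranges of the neighbours *HAND2* and *ISL1*, *ISL1* and *EYA1*, *EYA1* and *PHOX2A*, and *TBX2* and *GATA2* overlapped. *HAND2* exceeded *ISL1* in 3 libraries, EtOH replicates 1 and 3 and Tet replicate 3, and *ISL1* exceeded *HAND2* in the other 3. *PHOX2A* exceeded *EYA1* in Tet replicate 3 only. On this scale the summed level of the 8 members was 363 to 390 TPM in libraries labelled EtOH and 449 to 547 TPM in those labelled Tet.

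No member passed the threshold between the labels, though 6 of the 7 tested leaned towards the Tet label. The edgeR test called 0 of 7 members higher, beside 0.147% of all genes tested. At an unadjusted p under 0.05 there were 6 members, all higher, where 5.83% of all genes were higher at that level. In 5 members (*PHOX2A*, *GATA2*, *GATA3*, *ISL1* and *EYA1*) all 3 Tet libraries lay above all 3 EtOH libraries, which held for 9.2% of genes tested. The log2 fold change exceeded 1 in 4 members, against 4.09% of genes. The median log2 fold change over the 7 members was 1.18, against -0.01 over all genes tested. DESeq2 on the genes edgeR tested called 3 members higher (*ISL1*, *PHOX2A* and *GATA2*), beside 1.67% of genes, and DESeq2 on all genes with a count called *ISL1* and *PHOX2A*, beside 1.29%. edgeR without the filter also called *ISL1* and *PHOX2A*, beside 0.457% of genes, and limma-voom called 0. The direction was the same under every scaling tried. The study's methods describe its cell culture work as done in 3 biological replicates, while the labels of these libraries give only a replicate number, and the p-values measure the spread between these libraries. In bulk RNA a change in the number of cells of a kind cannot be told apart from a change in RNA per cell.

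**Figure D1:**
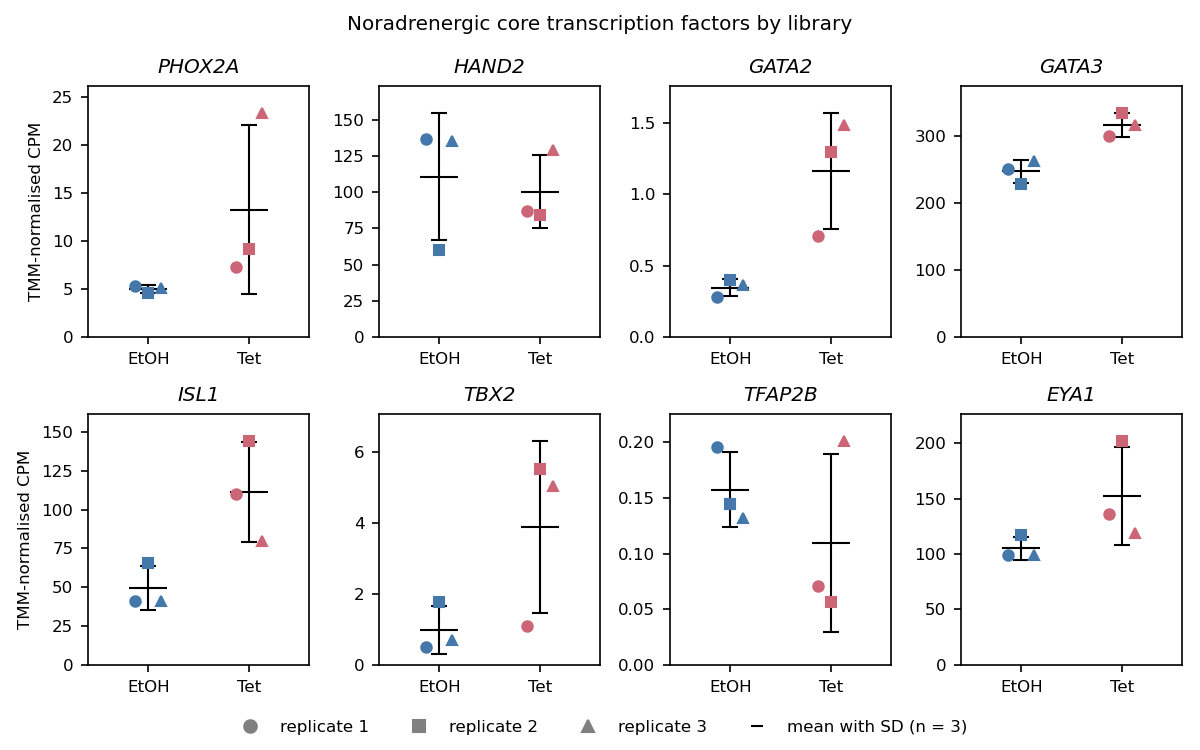
TMM-normalised CPM of each member in the 3 libraries labelled EtOH and the 3 labelled Tet, with each axis starting at 0, a symbol for each replicate number, and the mean with its SD (n = 3 each). All Tet libraries lie above all EtOH libraries for *PHOX2A*, *GATA2*, *GATA3*, *ISL1* and *EYA1*, and *PHOX2A* is set apart in Tet replicate 3 at 23.4 CPM.

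**Figure D2:**
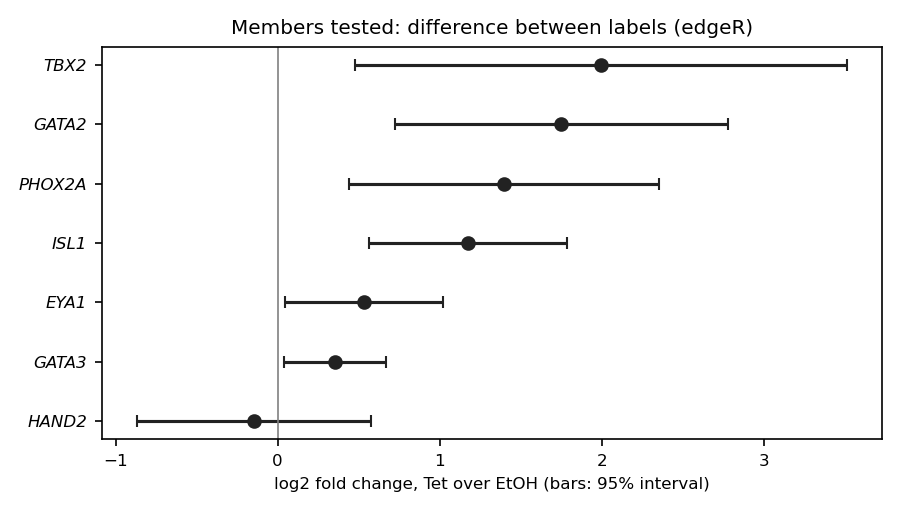
Log2 fold change of the 7 members tested, Tet over EtOH, from the edgeR fit, with 95% intervals before any adjustment for the number of genes. *HAND2* is the 1 member whose interval spans 0 (-0.87 to 0.58), and *TBX2* has the widest interval (0.48 to 3.51).

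*ISL1* (ENSG00000016082, chr5:51383448-51394730, plus strand), a LIM homeodomain factor needed for sympathetic neuron development, gave the strongest signal of the 8. It stood at 41.3, 65.6 and 40.9 CPM in EtOH replicates 1, 2 and 3, and at 110, 144 and 79.8 CPM in Tet replicates 1, 2 and 3. The lowest Tet library was above the highest EtOH library, and EtOH replicate 2 and Tet replicate 2 were the highest of their labels. The means were 49.3 ± 14.1 and 111 ± 32.3 CPM (SD, n = 3), a log2 fold change of 1.18 (SE 0.27, 95% interval 0.57 to 1.79), or 2.26-fold, with an edgeR adjusted p of 0.142. Without EtOH replicate 2 the log2 fold change was 1.44 and *ISL1* was called (adjusted p = 0.0174), as 1.51% of genes were. Without both libraries numbered 2, an alternative chosen after seeing the data, it was 1.21 and called as well (adjusted p = 0.0102), with 2.1% of genes higher. No exon base of *ISL1* lies in another gene, so the even division of reads between overlapping genes did not touch it.

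*ISL1-DT*, the non-coding transcript that leaves the *ISL1* promoter in the other direction, leaned the same way. Its start lies 116 bases from that of *ISL1*, within the window printed above, and the exons of the pair share 0 bases. It stood at 24.4, 20.2 and 25.7 CPM in EtOH replicates 1, 2 and 3, and at 46.8, 32.8 and 50.6 CPM in Tet replicates 1, 2 and 3. All Tet libraries lay above all EtOH libraries, but the libraries numbered 2, highest for *ISL1* within each label, were the lowest for *ISL1-DT*. Its log2 fold change was 0.89 (SE 0.20), with an edgeR adjusted p of 0.145, and DESeq2 on the same genes called it (adjusted p = 0.0106).

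The GATA pair differed widely in level. *GATA3* (ENSG00000107485, chr10:8045378-8075198, plus strand), a zinc finger factor of sympathetic neurons, stood at 251, 229 and 263 CPM in EtOH replicates 1, 2 and 3 and at 299, 334 and 316 CPM in Tet replicates 1, 2 and 3. The groups did not overlap and were tight, at 247 ± 17.2 and 316 ± 17.4 CPM (SD, n = 3). The log2 fold change was 0.36 (SE 0.14, 95% interval 0.04 to 0.67), or 1.28-fold, with an edgeR adjusted p of 0.401. Of the 7 members tested only *HAND2* had a smaller difference.

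*GATA2* (ENSG00000179348, chr3:128479427-128493201, minus strand), the paralogue that acts in progenitors of blood and sympathetic neurons, had 10, 11 and 11 counts in EtOH replicates 1, 2 and 3. It had 20, 46 and 59 counts in Tet replicates 1, 2 and 3. In CPM these were 0.279, 0.397 and 0.364 against 0.709, 1.30 and 1.48, so all Tet libraries were above all EtOH libraries. *GATA2* also passed a filter of at least 10 counts in every library, which does not depend on the label. The log2 fold change was 1.75 (SE 0.45, 95% interval 0.73 to 2.78), or 3.37-fold, with an edgeR adjusted p of 0.193. With 10 to 11 counts in each EtOH library the fold is imprecise.

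*GATA3* was 759 to 1183 times as abundant as *GATA2* per length in EtOH libraries and 280 to 556 times in Tet libraries. The log2 ratio of *GATA3* to *GATA2* was 9.89 ± 0.32 and 8.55 ± 0.51 (SD, n = 3), a difference of -1.34 (exact two-sided permutation test, p = 0.1, adjusted p = 0.15 over 3 ratios). With 3 libraries against 3, 0.1 is the smallest p that this test allows. The other GATA genes (*GATA1*, *GATA4*, *GATA5* and *GATA6*) were at 0 counts in every library, and *GATA3* made up 99.6% to 99.9% of the family's level.

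The transcripts beside the GATA genes went separate ways. *GATA2-AS1*, whose start lies 3989 bases from that of *GATA2* on the other strand with 0 shared exon bases, stood at 1.84, 1.55 and 2.58 CPM in EtOH replicates 1, 2 and 3 and at 3.51, 5.61 and 4.03 CPM in Tet replicates 1, 2 and 3. The labels did not overlap, and the log2 fold change was 1.14 (SE 0.32, adjusted p = 0.224 by edgeR). *GATA3-AS1*, which shares 0 exon bases with *GATA3*, was at 4.04 CPM in EtOH replicate 2 and 12.3 CPM in EtOH replicate 3, a range that spanned all of its Tet values. Its log2 fold change was -0.14 (SE 0.42, adjusted p = 0.951 by edgeR), and the sign turned when EtOH replicate 1, EtOH replicate 3 or Tet replicate 2 was left out. A gene without a symbol, ENSG00000232638, lies within the span of *GATA3-AS1* on the other strand, at a log2 fold change of -0.18 (SE 0.42, adjusted p = 0.934 by edgeR). The counting did not use strand, and the part of shared reads in the *GATA3-AS1* value was not tested.

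*PHOX2A* (ENSG00000165462, chr11:72239077-72245664, minus strand), a homeodomain factor that switches on genes of noradrenaline synthesis, was at 5.36, 4.58 and 5.16 CPM in EtOH replicates 1, 2 and 3. It was at 7.27, 9.14 and 23.4 CPM in Tet replicates 1, 2 and 3. All Tet libraries were above all EtOH libraries, and Tet replicate 3 stood apart from the other two. The means were 5.03 ± 0.403 and 13.3 ± 8.80 CPM (SD, n = 3), which gave 1.40 as the log2 fold change (SE 0.42, 95% interval 0.44 to 2.35, adjusted p = 0.262 by edgeR). Without Tet replicate 3 the log2 fold change was 0.71 (adjusted p = 0.452). *INPPL1*, a lipid phosphatase gene on the other strand, overlaps 71 exon bases of *PHOX2A* (3.98%) and was highest in the same library, at 11.9 CPM. Its own log2 fold change was 0.86 (SE 0.39, adjusted p = 0.486), and its part in the *PHOX2A* value was not tested.

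*HAND2* (ENSG00000164107, chr4:173524969-173530229, minus strand), a basic helix-loop-helix factor of sympathetic and cardiac development, was the tested member that did not lean towards Tet. It stood at 137, 60.1 and 135 CPM in EtOH replicates 1, 2 and 3 and at 86.9, 84.4 and 129 CPM in Tet replicates 1, 2 and 3. EtOH replicate 2 was the lowest of all 6 libraries, below every Tet library, while the other EtOH libraries were above every Tet library. The log2 fold change was -0.14 (SE 0.32, 95% interval -0.87 to 0.58, adjusted p = 0.932 by edgeR). It was -0.44 without EtOH replicate 2 (adjusted p = 0.230), 0.018 without EtOH replicate 1 and 0.0032 without EtOH replicate 3, so the sign itself was set by single libraries. *HAND1*, the paralogue, was at a mean of 13.6 TPM, and *HAND2* made up 80.2% to 88.4% of the pair's level per length.

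*HAND2-AS1*, a non-coding transcript that starts near *HAND2* on the other strand, differed from *HAND2* in pattern. It had a higher CPM than *HAND2* in every library, a measure that does not account for transcript length. It stood at 388, 322 and 406 CPM in EtOH replicates 1, 2 and 3 and at 531, 630 and 490 CPM in Tet replicates 1, 2 and 3. All Tet libraries were above all EtOH libraries, and the log2 fold change was 0.57 (SE 0.16, adjusted p = 0.247 by edgeR). The pair shares 867 exon bases, which is 24.1% of the exon bases of *HAND2*. Because the counting did not use strand and divided shared reads evenly, reads over those bases cannot be assigned to either gene, and the levels of both are uncertain to that extent.

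**Figure D3:**
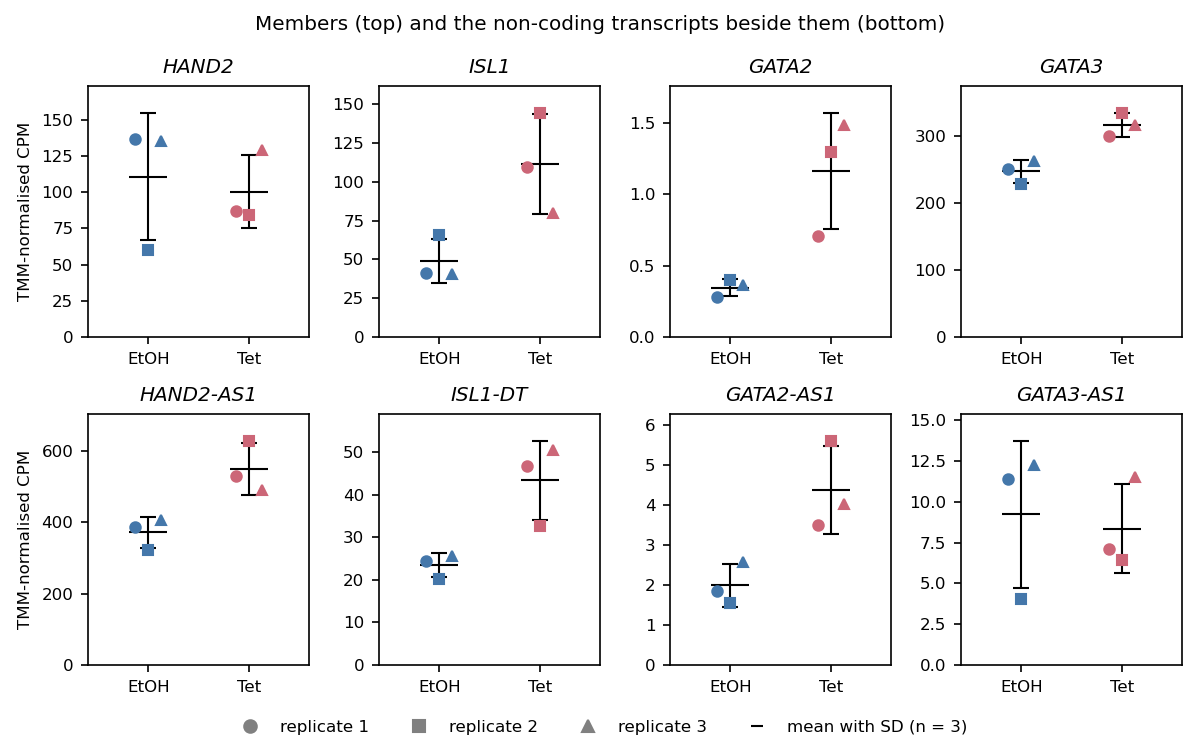
TMM-normalised CPM of *HAND2*, *ISL1*, *GATA2* and *GATA3* (top) and of the non-coding transcript beside each (bottom) in the 3 EtOH and 3 Tet libraries, each axis starting at 0, with the mean and SD (n = 3 each). Every Tet library is above every EtOH library for *HAND2-AS1*, *ISL1-DT* and *GATA2-AS1*, but not for *GATA3-AS1* or *HAND2*.

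*TBX2* (ENSG00000121068, chr17:61399843-61409466, plus strand), a T-box repressor tied to proliferation in neuroblastoma, had the largest log2 fold change of the members and also the widest error. It stood at 0.502, 1.77 and 0.694 CPM in EtOH replicates 1, 2 and 3 and at 1.10, 5.53 and 5.03 CPM in Tet replicates 1, 2 and 3. Tet replicate 1 was below EtOH replicate 2, so the labels overlapped. The log2 fold change was 1.99 (SE 0.67, 95% interval 0.48 to 3.51, adjusted p = 0.315 by edgeR), and it was 2.71 without EtOH replicate 2 (adjusted p = 0.0610). *TBX3*, the closest relative, was more abundant, at a mean of 5.12 TPM, and its log2 fold change was -0.05 (SE 0.35, adjusted p = 0.981 by edgeR), with a sign that changed with the library left out. The log2 ratio of *TBX2* to *TBX3* was -3.66 ± 0.36 and -1.79 ± 1.16 (SD, n = 3), a difference of 1.87 (exact two-sided permutation test, p = 0.1, adjusted p = 0.15). *TBX2-AS1* had 5, 0 and 0 counts in EtOH replicates 1, 2 and 3 and 3, 18 and 19 counts in Tet replicates 1, 2 and 3, too few to be tested. A non-coding gene without a symbol, ENSG00000267131, shares 28 exon bases with *TBX2* and had at most 15 counts in any library.

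*TFAP2B* (ENSG00000008196, chr6:50818723-50847619, plus strand), an AP-2 factor of sympathetic differentiation, was at the floor of these libraries. It had 7, 4 and 4 counts in EtOH replicates 1, 2 and 3 and 2, 2 and 8 counts in Tet replicates 1, 2 and 3. The labels overlapped, and no fold change is given. *TFAP2A*, the AP-2 factor of early neural crest, was the main family member at a mean of 1.86 TPM. *TFAP2B* made up 1.18% (Tet replicate 2, exact Clopper-Pearson 95% interval 0.143 to 4.19) to 5.13% (Tet replicate 3, 2.24 to 9.85) of the counts of the pair, intervals that cover counting error only. *TFAP2A* itself was at 7.48, 6.38 and 7.50 CPM in EtOH replicates 1, 2 and 3 and at 3.54, 4.74 and 3.72 CPM in Tet replicates 1, 2 and 3. All Tet libraries were below all EtOH libraries, which held for 8.28% of genes tested, and the log2 fold change was -0.83 (SE 0.23, adjusted p = 0.224 by edgeR), with 16.8% of its exon bases shared with other genes. The log2 ratio of *TFAP2B* to *TFAP2A* differed by 0.10 between the labels (exact two-sided permutation test, p = 0.9, adjusted p = 0.9), with few counts behind it.

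*EYA1* (ENSG00000104313, chr8:71197433-71592025, minus strand), a phosphatase and coactivator of sine oculis-type homeodomain factors, was at 99.0, 117 and 99.6 CPM in EtOH replicates 1, 2 and 3. It was at 136, 202 and 119 CPM in Tet replicates 1, 2 and 3. Tet replicate 3 was above the highest EtOH library by a narrow margin, and Tet replicate 2 was the highest. The log2 fold change was 0.53 (SE 0.21, 95% interval 0.05 to 1.02, adjusted p = 0.420 by edgeR), and 0.27 without Tet replicate 2 (adjusted p = 0.743). All 4 EYA genes were detected. Its mean of 37.6 TPM was close to the 36.6 TPM of *EYA3*, ahead of *EYA2* at 20.9 TPM and *EYA4* at 4.92 TPM. *EYA3* had a log2 fold change of -0.18 (SE 0.21, adjusted p = 0.839 by edgeR). The share of *EYA1* exon bases that lie in other genes was 3.72%, in the non-coding ENSG00000254031 and ENSG00000285579.

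**Figure D4:**
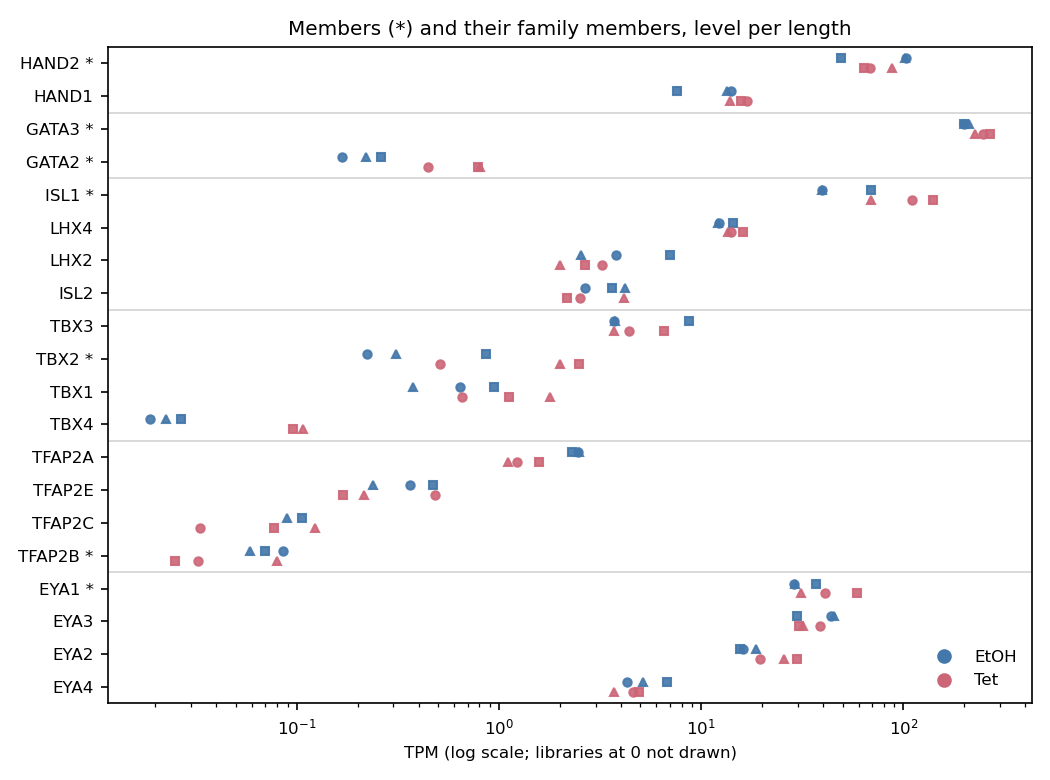
TPM (log scale) of 7 members, marked with an asterisk, and of the other genes of their family sets in each of the 6 libraries. Genes with more than 3 counts in at least 1 library are drawn, libraries at 0 being left out. The LIM homeodomain set was *ISL1*, *ISL2* and *LHX1* to *LHX4*, and the T-box set *TBX1* to *TBX5*. *TBX18*, another T-box gene (3.10 TPM on average), is not drawn. *GATA3*, *HAND2* and *ISL1* are the most abundant genes of their sets, whereas *TBX2* and *TFAP2B* lie below *TBX3* and *TFAP2A*. *EYA1* (37.6 TPM on average) lies beside *EYA3* (36.6 TPM).

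Of the 23 other family members listed, 12 were tested and edgeR called 0. At an unadjusted p under 0.05, 1 was higher and 1 lower, beside 5.83% and 4.94% of all genes tested. DESeq2 on the genes edgeR tested called *TFAP2A* lower, as it did 260 of 20699 genes. DESeq2 on all genes with a count called 0, and limma-voom called 0. The median log2 fold change of the 12 was -0.11. *LHX4*, the next most abundant gene of the LIM homeodomain set after *ISL1*, was at a mean of 13.7 TPM with a log2 fold change of 0.25 (SE 0.15, adjusted p = 0.620 by edgeR), with 30.7% of its exonic sequence inside other genes. *ISL1* made up 67.7% to 86.9% of that set's level per length.

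Within the members, profiles over the 6 libraries differed. Profiles were compared as the root mean square difference of log2 CPM, each gene centred on its own mean, as a description. *GATA3* and *EYA1* were the most alike pair (0.252) and *HAND2* and *TBX2* the least alike (1.44). Among 8227 other protein-coding genes with a mean of at least 5 CPM, the gene most like *PHOX2A* was *EEF1A2* (0.146), a translation elongation factor of neurons and muscle. It stood at 2.45 to 3.31 CPM in EtOH libraries and at 4.18, 4.68 and 16.3 CPM in Tet replicates 1, 2 and 3, so that Tet replicate 3 stood apart in both genes. The gene most like *GATA2* was *ELAVL3* (0.196), an RNA-binding protein of neurons, which reached 26.2 to 40.8 CPM in Tet libraries, above its values in every EtOH library. *CYP7B1*, a steroid hydroxylase, was nearest to *ISL1* (0.125) and *LSAMP*, a neuronal adhesion protein, to *GATA3* (0.0354). *LRRK1* was nearest to *HAND2* (0.0876), *MPPED2* to *EYA1* (0.0404) and *C8orf48* to *TBX2* (0.557). All 6 libraries were used, so each likeness includes the difference between the labels and any shared feature of a library.

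Among genes downstream in the noradrenergic programme, *DDC* and *SLC6A2* passed the threshold. Of 18 noradrenergic target genes 13 were tested, and edgeR called 2 higher and 0 lower, beside 0.147% of all genes tested called higher. At an unadjusted p under 0.05, 8 were higher and 1 lower, where 5.83% of all genes tested were higher and 4.94% lower at that level. The median log2 fold change was 1.04. *DDC*, the decarboxylase that makes dopamine from L-DOPA, had 6, 10 and 6 counts in EtOH replicates 1, 2 and 3 and 91, 104 and 94 counts in Tet replicates 1, 2 and 3. It rose by a log2 fold change of 3.55 (SE 0.41, adjusted p = 0.0280 by edgeR), and it passed the filter on low counts only through its Tet libraries. *SLC6A2*, the noradrenaline transporter, was at 5.58, 4.04 and 5.65 CPM in EtOH replicates 1, 2 and 3 and at 15.7, 22.7 and 17.2 CPM in Tet replicates 1, 2 and 3. It rose by a log2 fold change of 1.87 (SE 0.24, adjusted p = 0.0332 by edgeR), with 17.9% of its exonic sequence inside other genes. Both calls were lost when any 1 library other than EtOH replicate 2 was left out, with adjusted p between 0.106 and 0.217.

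Other steps of noradrenaline synthesis and storage did not pass the threshold, and those named in this paragraph outside the naming rule were chosen after their values were seen. *DBH*, which makes noradrenaline from dopamine, had 3, 0 and 0 counts in EtOH replicates 1, 2 and 3 and 9, 5.5 and 18 in Tet replicates 1, 2 and 3, too few to be tested. *GCH1*, the entry enzyme for the cofactor of TH, had a log2 fold change of -0.53 (SE 0.22, adjusted p = 0.437 by edgeR). All its Tet libraries were below all its EtOH libraries, which held for 8.28% of genes tested. *SLC18A2*, the vesicular monoamine transporter, was at -0.50 (SE 0.28, adjusted p = 0.584), with 56.4% of its exon bases in other genes. Granins, the proteins of dense-core vesicles, were all above 0, at a log2 fold change of 2.18 (SE 0.65, adjusted p = 0.255) for *CHGA*, 1.05 (SE 0.45, adjusted p = 0.452) for *CHGB*, 1.31 (SE 0.50, adjusted p = 0.391) for *SCG2* and 0.59 (SE 0.24, adjusted p = 0.420) for *SCG3*. In all 4 granins every Tet library was above every EtOH library, which held for 9.2% of all genes tested. Without both libraries numbered 2, an alternative chosen after seeing the data, *SCG2* was called (log2 fold change 1.11, adjusted p = 0.00613). DESeq2 on the same genes also called *CHGA* and the receptor tyrosine kinase gene *ALK* higher (log2 fold change 0.81 in edgeR, SE 0.20, adjusted p = 0.177). That run called 1.67% of genes higher.

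Among the other adrenergic-state transcription factors, 21 of 22 were tested, with a median log2 fold change of 0.20. The edgeR test called 1 higher and 0 lower, beside 0.147% of all genes tested called higher. At an unadjusted p under 0.05, 2 were higher and 1 lower, where 5.83% and 4.94% of all genes tested were. DESeq2 on the genes edgeR tested also called *TFAP2A*, a gene of this list, lower, as it did 260 of 20699 genes. *EBF3*, a helix-loop-helix factor of neuronal differentiation, rose from 30.7, 33.0 and 30.3 CPM in EtOH replicates 1, 2 and 3 to 68.8, 65.3 and 59.6 CPM in Tet replicates 1, 2 and 3. Its log2 fold change was 1.04 (SE 0.14, adjusted p = 0.0389 by edgeR). The call was lost when any 1 library other than EtOH replicate 2 was left out (adjusted p 0.156 to 0.327). *SOX11*, the most abundant of the list, was at 0.36 (SE 0.29, adjusted p = 0.733). Of 26 cofactors, such as the E-protein partners of HAND2, the LIM-binding partners of ISL1 and the sine oculis-type partners of EYA1, 22 were tested, and edgeR called 0. At an unadjusted p under 0.05, 3 were higher and 2 lower, beside 5.83% and 4.94% of all genes tested. DESeq2 called *LDB2* lower in both of its runs, where 260 of 20699 and 209 of 22418 genes were called lower. Limma-voom called 0, and the median log2 fold change was 0.26. The 2 most abundant cofactors, the E-protein genes *TCF12* and *TCF4*, had log2 fold changes of 0.11 (SE 0.13, adjusted p = 0.837 by edgeR) and -0.06 (SE 0.16, adjusted p = 0.946 by edgeR).

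Mesenchymal-state genes, the other known state of neuroblastoma cells, were described in the same way. Of 32 mesenchymal-state transcription factors 28 were tested, and edgeR called 0. At an unadjusted p under 0.05, 1 was higher and 6 lower, beside 5.83% and 4.94% of all genes tested. In 8 all Tet libraries were below all EtOH libraries, which held for 8.28% of all genes tested. The median log2 fold change was -0.18. DESeq2 called the T-box gene *TBX18* lower in both of its runs, where 260 of 20699 and 209 of 22418 genes were called lower, and limma-voom called 0. The 2 most abundant, *TWIST1* and *ZNF217*, were at 0.59 (SE 0.26, adjusted p = 0.474 by edgeR) and 0.28 (SE 0.20, adjusted p = 0.700 by edgeR). Of 16 mesenchymal-state markers 8 were tested, with 0 called by edgeR, 1 higher at an unadjusted p under 0.05 and a median of -0.25. The collagen gene *COL3A1* was called higher by DESeq2 in both of its runs, beside 1.67% and 1.29% of genes, and limma-voom called 0. Those 16 markers summed to 299 to 420 CPM in EtOH libraries and 293 to 376 CPM in Tet libraries, with 6 at or under 3 counts in every library, and the ranges of the labels overlapped. The most abundant was *VIM*, at a mean of 99.3 TPM. Of Schwann and glial markers 4 were tested and of endothelial and leukocyte markers 1, with 0 called by edgeR, DESeq2 or limma-voom and 0 at an unadjusted p under 0.05.

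**Figure D5:**
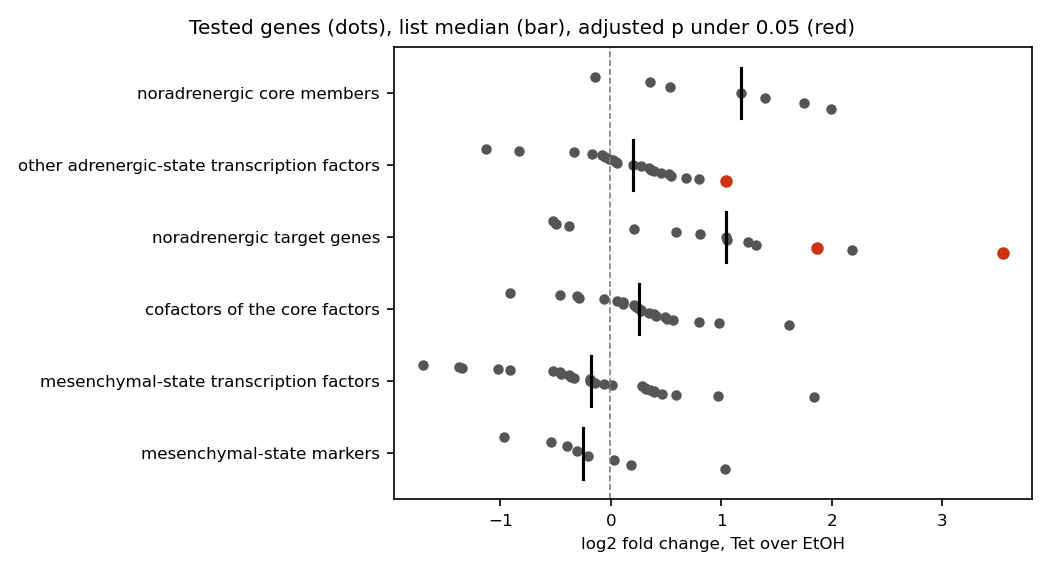
Log2 fold change, Tet over EtOH, of each tested gene in 6 lists, with the list median as a bar, genes at an adjusted p under 0.05 in red and the median of all genes tested as a dashed line. The members have a median of 1.18, the noradrenergic target genes of 1.04, the cofactors of 0.26 and the other adrenergic-state factors of 0.20. The mesenchymal-state factors have -0.18 and the mesenchymal-state markers -0.25. The red points are *EBF3*, *SLC6A2* and *DDC*.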

How the data were processed

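Estimated counts per gene, 1 table per library, were deposited with no scaling for depth or length. The authors ran featureCounts 1.6.4 on STAR alignments of trimmed reads, per the file headers, taking exons, unique alignments only and no strand, and dividing a read evenly among overlapping genes. The submitters' processing notes name STAR 2.7.1a, featureCounts 1.5.1 and GRCh38, and the study's methods describe stranded counting with several alignments admitted. The headers were followed here. In each library 12.3% to 14.7% of genes had values that were not whole. Coordinates are GRCh38, counted from 1. Symbols were matched for 60437 identifiers (99.6%). The 92 spike-ins, all at 0, were left out.

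Because the planned test assumed whole counts, estimated counts were rounded. Genes were kept with filterByExpr, scaled by TMM and tested, Tet against EtOH, with the edgeR 4.0.16 quasi-likelihood F test (R 4.3.3), without a block. Adjusted p-values are Benjamini-Hochberg over every tested gene (threshold 0.05, two-sided). SE is the log2 fold change divided by the square root of F. TPM used the exon lengths deposited in the tables. Ratios were compared by exact permutation tests (scipy 1.17.1). The edgeR step was tested on simulated data. DESeq2 1.42.0, limma 3.58.1 (voom), other scalings, filters, a replicate block and leaving out libraries were alternatives. Columns of other samples not used numbered 0. Protein identity between paralogues was planned and not run.

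The members, lists and tests were chosen with earlier results of these data known. Named genes were all members, *MYCN*, in each list the genes called and the 2 highest in mean TPM, the most abundant relative in each family, transcripts beside a member, and the protein-coding gene with the nearest profile. Other named genes were chosen after their values were seen. A gene of these lists that the rule would name, and the results that need it, are not reported here.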

Additional observations from a re-analysis of the deposited data

How the results depend on the processing

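Over 15 alternatives the 6 members higher in Tet kept their direction, and *HAND2* did not. Counts of genes higher and lower (33 and 20) were 27 and 13 with RLE size factors, 185 and 117 with no filter, 346 and 260 when DESeq2 was given the genes edgeR tested, and 290 and 209 when it was given all genes with a count. Members called (0) became 2 with no filter, 3 and 2 with the DESeq2 runs. Calls among other adrenergic factors (1) became 0 with RLE size factors and 2 with DESeq2 on the genes edgeR tested. Calls among noradrenergic targets (2) became 1 at a minimum of 10 counts in every library, which leaves out *DDC*, and 4 and 4 with DESeq2. DESeq2 on the genes edgeR tested gave 1 call each among mesenchymal factors, family members and cofactors, on all genes 1, 0 and 1, and no filter gave 1 mesenchymal factor. The cause was not tested.

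Leaving out 1 library gave 0 to 361 genes higher, 0 to 331 lower, 0 to 1 members called, 0 to 1 other adrenergic factors, 0 to 1 mesenchymal factors, 0 family members, 0 to 2 cofactors and 0 to 2 targets. Only without EtOH replicate 2 did the counts exceed 1 higher and 1 lower. Leaving out both libraries numbered 2 (chosen after seeing the data) gave 487 higher and 387 lower genes, 1 member, 2 other adrenergic factors, 3 mesenchymal factors, 1 family member, 2 cofactors and 3 targets. Over these same omissions, the log2 fold changes that turned sign ranged from -0.44 to 0.018 for *HAND2*, -0.49 to 0.091 for *GATA3-AS1*, -0.22 to 0.21 for *MYCN*, -0.19 to 0.0035 for *TCF4* and -0.31 to 0.42 for *TBX3*, and the log2 ratio of *TFAP2B* to *TFAP2A* from -0.50 to 0.58. *TBX3* was also at 0.030 with limma-voom and 0.0053 with the replicate block.

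Same-numbered libraries had correlations of their deviations of 0.0603, 0.510 and 0.219, highest for number 2. As 1 of the 3 was under 0.1, the numbers were not taken to pair the libraries. The replicate block gave 421 higher and 254 lower genes of 22443. It called 2 members higher (*ISL1*, adjusted p = 0.00238, and *TBX2*, adjusted p = 0.0271), beside 1.88% of genes higher. It also called 4 mesenchymal factors, 2 cofactors and 5 targets, *SCG2* (adjusted p = 0.0102) and *CHGB* (adjusted p = 0.0311) among the targets. List counts under the alternatives take both directions together. In the block the mesenchymal factor *TWIST1* was called higher (log2 fold change 0.57, adjusted p = 0.0409). Depth limits *TFAP2B* and *DBH*, which had 3 counts or fewer in some libraries, and *GATA2*, with 10 to 11 counts in EtOH libraries.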
